A study of Mus musculus with 12 samples.

Results

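Cadherins and claudins are the adhesive proteins of the adherens and tight junctions between cells. Genes were taken into the set where the array's annotation gave a probe set a single symbol made of Cdh or Cldn and a number. That rule found 41 genes among the 18193 measured, 21 cadherins and 20 claudins, with 69 probe sets in all. Each gene was read from its brightest probe set by the mean of the 12 arrays, and 17 of the 41 genes had more than 1. By textbook role, 2 of the genes are endothelial (Cdh5 and Cldn5), 5 are epithelial cadherins, 15 are epithelial claudins, 12 are neural or mesenchymal cadherins and 7 were put in none of these classes.

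The 41 genes were measured in mouse embryos at embryonic day 8.0 from a mixed line of C57BL/6 and FVB background. All embryos came from the line named ER71 EYFP, and cells freed with trypsin were sorted on EYFP, a fluorescent reporter protein. The 4 groups of 3 arrays were EYFP positive cells of ER71 mutants, EYFP negative cells of ER71 mutants, EYFP positive cells of ER71 wild types and EYFP negative cells of ER71 wild types, called mutant positive, mutant negative, wild-type positive and wild-type negative cells here. ER71 is an older name of Etv2, an ETS-family transcription factor needed for endothelial and blood development. The labels do not say what drives EYFP, what the ER71 mutation is, or whether other alleles are present. They also do not say whether a group's samples are separate embryos or pools. The p-values thus cover only how far these samples differ from each other. Part of that spread may be technical, and in mutants all of it may be. RNA of every group was amplified in 2 rounds before hybridisation, per the labels.

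Classical cadherins bind cadherins of the same kind on the next cell through calcium-dependent extracellular repeats and hold the actin cytoskeleton through catenins. Cdh1 (E-cadherin) marks epithelia, Cdh2 (N-cadherin) marks neural tissue and mesoderm, and Cdh5 (VE-cadherin) marks endothelium. Claudins span the membrane 4 times and set which ions and small solutes pass between cells, and Cldn5 is the main claudin of endothelial tight junctions. The early embryo has epithelia in the neural plate, the surface ectoderm, the gut endoderm and the yolk sac, while much of the mesoderm is mesenchymal.

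Values are log2 expression values as deposited, and each was read within its own gene, since levels of different probe sets are not comparable. Array medians lay between 6.98 and 7.06. Across genes, which are no independent replicates, Pearson's r was 0.986 to 0.993 within groups and 0.957 to 0.993 between groups. A group mean below 5.65, the median of the arrays' 25th percentiles, is called low here, and the size of a difference from a low mean is uncertain. By that mark 28 of the 41 genes were low in 0 groups, while 8 (Cdh8, Cdh9, Cdh17, Cdh18, Cdh19, Cldn14, Cldn19 and Cldn23) were low in all 4. Etv2 itself read 7.40, 7.26 and 7.28 on the mutant positive arrays and 7.24 to 7.49 in mutant negative cells, against 10.72, 10.70 and 11.36 in wild-type positive cells, with 7.50 to 7.85 in wild-type negative cells. It was high in wild-type positive cells and lay within 7.24 to 7.85 in the other 3 groups.

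Some arrays stood apart from others of their group. Afp, a secreted protein of yolk sac and liver, stood at 11.98 on mutant positive array 1, against 5.02 and 4.03 on arrays 2 and 3. The mean of 11 yolk sac endoderm markers was 9.22 on that array, against 6.81 and 6.77 on mutant positive arrays 2 and 3, 8.37 to 8.45 in mutant negative cells, 6.58 to 6.74 in wild-type positive cells and 7.88 to 8.40 in wild-type negative cells. The Y-linked gene Eif2s3y was high on the arrays numbered 1 of both wild-type groups (10.81 in positive and 11.23 in negative cells), against 4.11 to 4.53 on all other arrays. Xist, the X-linked RNA of female cells, read 10.33 and 8.19 on these arrays, against 13.36 to 13.98 on all others. The wild-type samples numbered 1 thus held male material that the other samples lacked. Hbb-y, an embryonic beta-globin of primitive red cells, was at 11.55 on mutant negative array 2, against 5.01 and 4.71 on arrays 1 and 3. It was at 10.80 and 11.94 on wild-type negative arrays 1 and 3, against 5.59 on array 2, and Hbb-bh1, another embryonic globin, was high on the same 3 negative arrays (10.05 to 11.87, against 6.10 to 6.70 on the other negative arrays). Some results below, not all, are also given without 1 of these arrays or without both wild-type arrays numbered 1.

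Cdh5 and Cldn5, the endothelial members, were high in wild-type positive cells and in no other group. Cdh5 read 5.09, 4.86 and 5.0 in mutant positive cells and 4.93, 4.81 and 4.93 in mutant negative cells. It read 10.35, 10.04 and 10.29 in wild-type positive cells, against 4.78, 4.71 and 4.88 in wild-type negative cells. The wild-type positive arrays lay above all the others with no overlap, and the means of the other 3 groups were all low. Cldn5 read 7.23, 6.99 and 6.81 in mutant positive cells and 6.63, 6.79 and 6.45 in mutant negative cells. It read 11.92, 11.68 and 12.02 in wild-type positive cells, against 6.69, 6.58 and 6.60 in wild-type negative cells. Its wild-type positive arrays again lay apart, and its mutant positive arrays lay just above its mutant negative arrays.

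In wild types, Cdh5 was 43.3-fold higher in positive than in negative cells (log2 difference 5.44 ± 0.11 SE, n = 3 each, limma adjusted p = 2.25e-10) and Cldn5 was 38.1-fold higher (5.25 ± 0.14, limma adjusted p = 1.37e-09). Of the 41 genes, 2 were higher in wild-type positive cells, or 4.88%, beside 4.63% of all 18193 genes. Both were also lower in mutant positive than in wild-type positive cells, with log2 differences of -5.24 ± 0.11 for Cdh5 and -4.86 ± 0.14 for Cldn5 (limma adjusted p = 3.4e-10 and 3.19e-09). They were 2 of 41 genes lower there, or 4.88%, beside 3.74% of all genes. In bulk samples, fewer cells of a type and less RNA per cell cannot be told apart.

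Within mutants neither endothelial gene passed the test. Cdh5 differed by 0.10 between mutant positive and mutant negative cells (95% interval -0.14 to 0.33, limma adjusted p = 0.787). Cldn5 differed by 0.39 (95% interval 0.09 to 0.68, limma adjusted p = 0.158), with its mutant positive arrays above its mutant negative arrays. The change of the positive-negative difference with genotype, tested as an interaction (the mutant difference less the wild-type one), was -5.34 ± 0.15 for Cdh5 and -4.87 ± 0.19 for Cldn5 (limma adjusted p = 1.34e-08 and 1.53e-07). In all, 2 of 41 genes were lower in the interaction, beside 1.61% of all genes. The calls of both genes between the wild-type sorts, between mutant and wild-type positive cells and in the interaction were kept under every alternative setting that held them (Cdh5 falls out where dim genes are left out). A second Cdh5 probe set, dimmer over the arrays (mean 6.00), differed by 0.39 between wild-type positive and negative cells and did not pass (limma adjusted p = 0.19 over all probe sets), and the mean of both gave 2.91 there, which passed.

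Of 15 endothelial marker genes, 15 rose in wild-type positive over wild-type negative cells and 14 fell in mutant positive against wild-type positive cells, with medians of 3.17 and -2.37 beside -0.02 and 0.01 over all genes (log2). Of all genes, 4.63% rose in the first comparison and 3.74% fell in the second. Between mutant positive and mutant negative cells 3 of the 15 were higher and 0 lower, beside 3.07% and 2.29% of all genes. The mean level of the 15 markers was 7.19 to 7.32 in mutant positive and 6.70 to 6.85 in mutant negative cells. Blood markers moved with the endothelial markers in the comparisons with wild-type positive cells. Of 9 primitive erythroid markers, 7 rose in wild-type positive over wild-type negative cells and 8 fell in mutant positive against wild-type positive cells (median log2 differences of 4.80 and -5.33), and their mean level was 5.83 to 5.91 in mutant positive and 5.90 to 7.32 in mutant negative cells, against 10.27 to 10.97 in wild-type positive and 5.96 to 7.74 in wild-type negative cells. The part of endothelial and blood cells in the levels of Cdh5 and Cldn5 was not tested. Of a list of 14 endothelial junction genes and ETS, SOX and other factors linked to Cdh5 or Cldn5, 13 rose in wild-type positive over negative cells and 12 fell in mutant positive against wild-type positive cells. That list holds Etv2 itself, the gene named in the mutation. Kdr, Pecam1, Sox7 and Sox18 of the list are also among the 15 endothelial markers, so the counts of these lists are not independent. Sox18, an endothelial SOX factor known as an activator of Cldn5, fell by 4.03 ± 0.16 on the log2 scale in mutant positive cells (limma adjusted p = 4.47e-08). Sox7, a related factor, and Tal1, which drives blood and endothelial fates, fell by 5.08 ± 0.17 and 4.69 ± 0.18 (limma adjusted p = 8.28e-09 and 2.62e-08). Kdr, the VEGF receptor of endothelium and its precursors, did not pass in that comparison, and it rose by 2.57 ± 0.16 in mutant positive over mutant negative cells (limma adjusted p = 4.62e-05). The part of these factors in the levels of Cdh5 and Cldn5 was not tested.

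**Figure D1:**
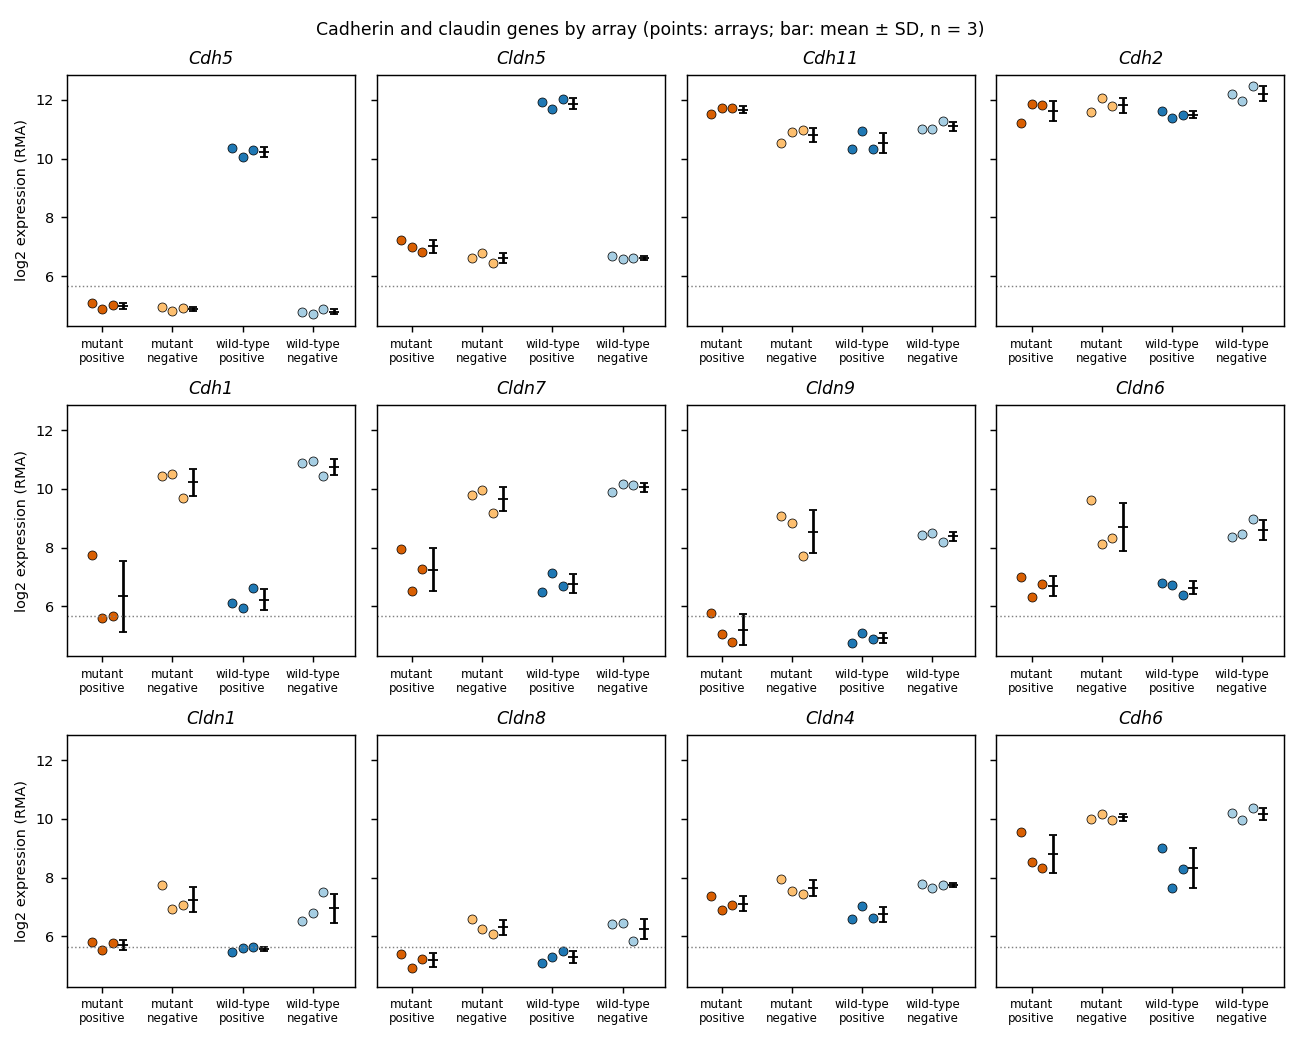
Log2 expression of 12 of the 41 genes, 1 point per array and a bar for the mean ± SD of each group, for mutant positive, mutant negative, wild-type positive and wild-type negative cells (3 arrays each); the dotted line is the median of the arrays' 25th percentiles, 5.65. Cdh5 and Cldn5 stand high in wild-type positive cells only, Cdh1, Cldn7 and Cldn9 stand lower on positive than on negative arrays of both genotypes, and Cdh11 stands highest in mutant positive cells.

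Promoter sequence was read for 3 claudins that differ in these patterns, Cldn5 (high in wild-type positive cells) and Cldn6 and Cldn7 (lower in positive cells of both genotypes, described next). The windows are the 250 bases before a transcript start in RefSeq on GRCm38.p6, all on the plus strand, Cldn5 at chr16:18776597-18776846, Cldn6 at chr17:23679115-23679364, and Cldn7 at chr11:69964529-69964778 and, for another start, at chr11:69965171-69965420. Capitals mark GGAA or its reverse complement TTCC, the core that ETS factors bind, and CANNTG, the general E-box. Factors such as Snai1 and Zeb1 bind only some forms of the E-box, and all forms were counted here. CANNTG reads alike on both strands, and no match of 1 motif overlapped the other in these windows.
Cldn5: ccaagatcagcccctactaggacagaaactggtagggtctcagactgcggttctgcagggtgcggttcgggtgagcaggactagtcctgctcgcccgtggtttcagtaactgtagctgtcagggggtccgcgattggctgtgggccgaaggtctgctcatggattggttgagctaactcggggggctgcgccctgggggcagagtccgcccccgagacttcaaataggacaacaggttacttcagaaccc
Cldn6: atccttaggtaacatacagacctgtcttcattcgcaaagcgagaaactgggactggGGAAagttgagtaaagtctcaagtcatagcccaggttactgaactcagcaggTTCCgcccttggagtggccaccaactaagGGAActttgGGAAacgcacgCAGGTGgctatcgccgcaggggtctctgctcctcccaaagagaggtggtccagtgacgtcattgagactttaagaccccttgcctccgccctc
Cldn7, first window: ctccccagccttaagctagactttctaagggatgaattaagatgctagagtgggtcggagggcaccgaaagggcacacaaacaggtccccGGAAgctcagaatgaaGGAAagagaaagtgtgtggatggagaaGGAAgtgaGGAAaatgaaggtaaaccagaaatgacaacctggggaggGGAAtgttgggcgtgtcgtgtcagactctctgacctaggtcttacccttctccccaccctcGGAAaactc
Cldn7, second window: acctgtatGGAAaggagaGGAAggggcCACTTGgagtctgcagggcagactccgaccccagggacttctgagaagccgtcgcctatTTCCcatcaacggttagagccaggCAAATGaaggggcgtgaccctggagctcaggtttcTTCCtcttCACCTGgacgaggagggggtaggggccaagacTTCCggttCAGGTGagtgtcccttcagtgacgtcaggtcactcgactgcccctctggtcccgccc

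The Cldn5 window held 0 GGAA cores and 0 E-boxes. The Cldn6 window held 4 GGAA cores and 1 E-box, the first Cldn7 window 6 and 0, and the second Cldn7 window 5 and 4. Among 32851 RefSeq windows of the same length, 93.4% held at least 1 GGAA core, 33.4% at least 4, 18.0% at least 5 and 8.69% at least 6, while 66.2% held at least 1 E-box and 3.84% at least 4. A match describes the letters and is no measured binding site, and its lack speaks only of these 250 bases. Windows were used for 27 of the 41 genes.

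The epithelial members were the largest group lower in positive than in negative cells. In wild types 11 of the 41 genes were lower in positive cells, or 26.8%, beside 3.61% of all genes. They were Cdh1, Cldn1, Cldn4, Cldn6, Cldn7, Cldn8, Cldn9, Cldn23, Cdh6, Cdh2 and Cldn11, of which 1 is an epithelial cadherin (of 5) and 7 are epithelial claudins (of 15). In mutants 7 of 41 were lower in positive cells, or 17.1%, beside 2.29% of all genes, and 6 of these 7 were epithelial. With positive and negative arrays of the same number paired in the fit, 10 were lower in mutants, the further 3 being Cdh6, Cdh7 and Cldn3. The 2.29% is from the unpaired fit. Several counts over all genes also rose with that pairing, as given below, and the paired share of all genes lower in mutants is not given. The median over the 15 epithelial claudins was -0.33 in mutants and -0.39 in wild types, beside -0.03 and -0.02 over all genes (log2).

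Cdh1, the cadherin of epithelial adherens junctions, read 7.74, 5.61 and 5.68 in mutant positive cells against 10.44, 10.51 and 9.70 in mutant negative cells. In wild types it read 6.12, 5.95 and 6.61 in positive cells against 10.86, 10.96 and 10.45 in negative cells. The positive arrays lay below the negative arrays in both genotypes with no overlap, and mutant positive array 1 was the highest of the positive arrays. Cdh1 was 14.7-fold lower in mutant positive than in mutant negative cells (log2 -3.88 ± 0.47, limma adjusted p = 0.000813) and 23.1-fold lower in positive than in negative cells of wild types (-4.53 ± 0.47, limma adjusted p = 0.000105). Without mutant positive array 1, on which the yolk sac markers were high, the difference in mutants was -4.57 (limma adjusted p = 2.61e-05). Of the 11 yolk sac markers 1 was higher and 0 lower in mutant positive against mutant negative cells, where array 1 enters the mutant positive mean, and 1 was higher and 4 lower in positive against negative cells of wild types. The shares of all genes were 3.07% higher and 2.29% lower in mutants, and 4.63% and 3.61% in wild types. The mean level of the 11 markers on mutant positive arrays 2 and 3 lay below that of every mutant negative array. The part of these markers' cells in the Cdh1 level was not tested.

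Cldn7, a claudin of simple epithelia whose protein binds Epcam, and Cldn9, a claudin best known from the inner ear, followed Cdh1. Cldn7 read 7.95, 6.51 and 7.28 in mutant positive cells against 9.79, 9.97 and 9.17 in mutant negative cells, and 6.49, 7.12 and 6.67 in wild-type positive cells against 9.88, 10.15 and 10.13 in wild-type negative cells. Cldn9 read 5.78, 5.07 and 4.77 in mutant positive cells against 9.08, 8.84 and 7.70 in mutant negative cells, and 4.76, 5.09 and 4.87 in wild-type positive cells against 8.44, 8.51 and 8.19 in wild-type negative cells. No positive array of either gene reached the lowest negative array, and both positive means of Cldn9 were low. Cldn7 was 5.27-fold lower in mutant positive than in mutant negative cells and 9.79-fold lower in positive than in negative cells of wild types (log2 -2.40 ± 0.32 and -3.29 ± 0.32, limma adjusted p = 0.00132 and 5.63e-05). Over the alternative settings the Cldn7 difference lay between -2.75 and -2.03 in mutants and between -3.47 and -3.15 in wild types. Cldn9 was 10.1-fold and 11.1-fold lower (log2 -3.34 ± 0.33 in mutants and -3.47 ± 0.33 in wild types, limma adjusted p = 0.000245 and 4.6e-05). A second and dimmer Cldn9 probe set differed by only -0.25 in wild types, so the Cldn9 result rests on 1 probe set, and the mean of both gave -1.73 in mutants and -1.86 in wild types, which passed.

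Cldn6, a claudin of early embryonic epithelia, read 6.99, 6.33 and 6.75 in mutant positive cells against 9.62, 8.11 and 8.33 in mutant negative cells. In wild types it read 6.78, 6.72 and 6.37 in positive cells against 8.35, 8.46 and 8.98 in negative cells. The groups did not overlap, and the largest spread was among the mutant negative arrays (SD 0.81). Cldn6 had log2 differences of -2.0 ± 0.34 in mutants and -1.97 ± 0.34 in wild types (limma adjusted p = 0.00532 and 0.00371). Cldn1, a barrier claudin of skin and other epithelia, read 5.82, 5.53 and 5.79 in mutant positive against 7.74, 6.95 and 7.06 in mutant negative cells, and 5.49, 5.60 and 5.64 in wild-type positive against 6.54, 6.81 and 7.52 in wild-type negative cells. Its groups did not overlap either. Its differences were -1.54 ± 0.25 in mutants and -1.38 ± 0.25 in wild types (limma adjusted p = 0.00364 and 0.00454), and its wild-type positive mean was low. Cldn1 has 4 probe sets, whose mean gave smaller differences of -0.62 in mutants and -0.37 in wild types, which passed.

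Cldn8, known from the tight junctions of the distal nephron, was the smallest of the changes found in both genotypes. It read 5.41, 4.93 and 5.23 in mutant positive against 6.59, 6.26 and 6.10 in mutant negative cells, and 5.10, 5.32 and 5.51 in wild-type positive against 6.44, 6.45 and 5.85 in wild-type negative cells. Positive arrays lay below negative arrays with no overlap, and the positive means of both genotypes were low. The log2 differences were -1.12 ± 0.20 in mutants and -0.94 ± 0.20 in wild types (limma adjusted p = 0.00599 and 0.0117). Wild-type positive array 1 and wild-type negative arrays 1 and 2 each decided the wild-type call, which was lost without them singly (limma adjusted p = 0.0504, 0.0559 and 0.0575) and without both arrays numbered 1 (0.156).

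The 6 genes Cdh1, Cldn1, Cldn6, Cldn7, Cldn8 and Cldn9 passed in both genotypes, which is 85.7% of the 7 genes lower in mutants and 54.5% of the 11 lower in wild types. Over all genes, 216 passed as lower in both genotypes, which is 51.8% of the 417 lower in mutants and 32.9% of the 656 lower in wild types. The differences themselves were compared by the interaction, which none of the 6 passed. It was 0.65 for Cdh1 (95% interval -0.82 to 2.13), 0.89 for Cldn7 (-0.10 to 1.89) and 0.13 for Cldn9 (-0.89 to 1.15). For Cldn6 it was -0.02 (-1.08 to 1.04), for Cldn1 -0.16 (-0.92 to 0.61) and for Cldn8 -0.19 (-0.80 to 0.42). Intervals this wide still hold changes of more than 2-fold in either direction for Cldn6, so equal behaviour of the genotypes is not shown. Mutant and wild-type positive cells did not differ past the threshold in any of the 6, and for Cdh1 that difference was 0.11 (95% interval -0.93 to 1.15, limma adjusted p = 0.921) on all arrays and -0.58 (0.28) without mutant positive array 1.

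Cldn4 and Cldn23 passed in wild types but not in mutants, and their interactions of 0.46 (95% interval -0.08 to 1.01) and 0.23 (-0.14 to 0.59) did not pass either. Cldn4, a claudin of gut and other epithelia, read 7.39, 6.89 and 7.08 in mutant positive against 7.96, 7.54 and 7.43 in mutant negative cells, and 6.60, 7.05 and 6.61 in wild-type positive against 7.80, 7.66 and 7.77 in wild-type negative cells. Positive arrays lay below negative arrays in both genotypes. Its log2 differences were -0.53 (limma adjusted p = 0.136) in mutants and -0.99 ± 0.18 (limma adjusted p = 0.00446) in wild types. Cldn23, a claudin of gut epithelium, read 5.01, 4.69 and 4.99 in mutant positive against 5.19, 5.23 and 5.28 in mutant negative cells, and 4.69, 4.75 and 4.53 in wild-type positive against 5.25, 5.05 and 5.35 in wild-type negative cells. It had a difference of -0.56 ± 0.12 in wild types (limma adjusted p = 0.0119) and of -0.33 in mutants (limma adjusted p = 0.165), and all its group means were low. The Cldn23 call was lost without wild-type negative array 3 (limma adjusted p = 0.0567), and both calls were lost without both wild-type arrays numbered 1 (0.0722 for Cldn4 and 0.0955 for Cldn23).

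The other epithelial members did not pass in the main fit, which was unpaired and held all arrays. Cldn3 passed in mutants when same-numbered arrays were paired, at -0.53 (limma adjusted p = 0.0351, against 0.0652 unpaired). Without pairing it passed there with the mean of all probe sets, with arrays centred on their median and without mutant negative array 3. Cdh3 (P-cadherin), which neighbours Cdh1 in the RefSeq gene order on chromosome 8, read 7.65, 7.82 and 7.40 in mutant positive and 7.77, 7.48 and 7.27 in mutant negative cells, against 7.58, 7.59 and 7.59 in wild-type positive and 7.65, 7.62 and 7.50 in wild-type negative cells. The groups overlapped, and it differed by 0.11 in mutants (95% interval -0.19 to 0.41) and by under 0.01 in wild types (-0.30 to 0.30) between positive and negative cells. Cldn2, which forms pores for cations in leaky epithelia, lay the other way without passing. It read 8.87, 8.18 and 7.56 in mutant positive against 7.23, 7.10 and 7.33 in mutant negative cells, and 8.71, 7.85 and 7.70 in wild-type positive against 6.86, 7.53 and 7.06 in wild-type negative cells. Positive arrays lay above negative arrays in both genotypes, but the differences of 0.98 and 0.94 did not pass (limma adjusted p = 0.136 in mutants and 0.124 in wild types). Cldn12, which was put in none of the role classes, read 12.02 to 12.62 on every array and passed in no comparison of the unpaired fit. With the mean of all probe sets it passed between the wild-type sorts and between mutant and wild-type positive cells.

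Other epithelial markers also passed. Of 12 epithelial and gut endoderm markers, 6 were lower and 1 higher in mutant positive against mutant negative cells, and 5 were lower and 1 higher in wild-type positive against wild-type negative cells. The shares of all genes were 2.29% lower and 3.07% higher in mutants, and 3.61% and 4.63% in wild types. In each genotype 3 of the 12 had differences above 0. Epcam, an epithelial adhesion protein, read 7.05 to 8.23 in mutant positive against 10.29 to 11.10 in mutant negative cells, and 6.05 to 7.91 in wild-type positive against 11.23 to 11.40 in wild-type negative cells. Krt8 lay the other way in mutants, at 12.88 to 13.27 in positive against 11.61 to 12.37 in negative cells. Sox17 lay the other way in wild types, at 11.82 to 12.35 in positive against 8.92 to 9.68 in negative cells. Sox17 is also in the list of factors linked to Cdh5 or Cldn5. The mean level of the 12 markers was 8.20 to 8.65 in mutant positive and 9.04 to 9.66 in mutant negative cells, against 8.28 to 8.59 in wild-type positive and 9.32 to 9.59 in wild-type negative cells. The part of cell makeup in the claudin differences was not tested.

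**Figure D2:**
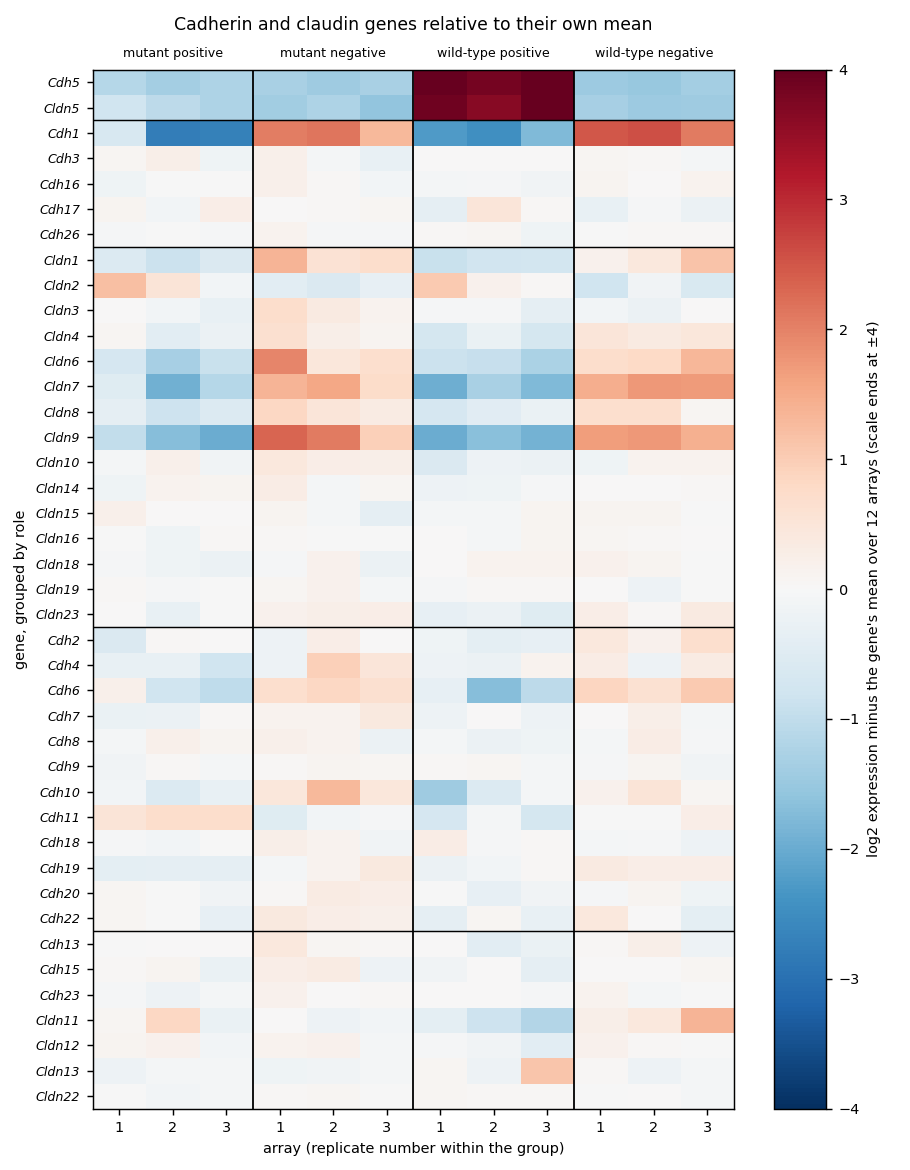
Log2 expression of all 41 genes on the 12 arrays, each gene given as its difference from its own mean over the arrays, with genes in rows grouped by role and arrays in columns ordered mutant positive, mutant negative, wild-type positive and wild-type negative. Cdh5 and Cldn5 are above their means in wild-type positive cells, while Cdh1, Cldn6, Cldn7 and Cldn9 are below theirs on the positive arrays of both genotypes.

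Among the 12 neural and mesenchymal cadherins, 2 were lower in positive than in negative cells of wild types (Cdh2 and Cdh6), and in mutants 1 was lower (Cdh19) and 1 higher (Cdh11). Of all genes, 3.61% were lower in wild types, and 2.29% were lower and 3.07% higher in mutants. The median over the 12 was -0.31 in mutants and -0.23 in wild types, beside -0.03 and -0.02 over all genes. Of 12 neural ectoderm marker genes, 9 were lower in mutant positive against mutant negative cells and 10 in wild-type positive against wild-type negative cells. Their mean level was 7.68 to 8.5 in mutant positive and 10.20 to 10.34 in mutant negative cells, against 7.81 to 8.54 in wild-type positive and 9.98 to 10.27 in wild-type negative cells, and the part of neural cells in the cadherin levels was not tested.

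Cdh11 (OB-cadherin), a cadherin of mesenchyme, was the only member that rose in mutant positive cells in these tests. It read 11.52, 11.73 and 11.73 in mutant positive cells and 10.52, 10.91 and 10.97 in mutant negative cells. It read 10.34, 10.93 and 10.33 in wild-type positive cells, against 11.003, 11.01 and 11.28 in wild-type negative cells. The mutant positive arrays were the 3 highest of the 12, and in wild types the order was turned, with every positive array below every negative array. Cdh11 was 2.18-fold higher in mutant positive than in wild-type positive cells (log2 1.13 ± 0.18, limma adjusted p = 0.00224), 1 of 41 genes (2.44%) beside 4.23% of all genes.

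Against mutant negative cells Cdh11 was 1.82-fold higher in mutant positive cells (log2 0.86 ± 0.18, limma adjusted p = 0.0149), again 1 of 41 genes, beside 3.07% of all genes. This call was lost without mutant positive array 2 or 3 or mutant negative array 1 (limma adjusted p = 0.0579, 0.0518 and 0.0547). In wild types the difference was -0.56 ± 0.18 and did not pass (limma adjusted p = 0.082), and without wild-type positive array 2 it was -0.76 and passed (0.012). The interaction was 1.42 ± 0.25 (limma adjusted p = 0.0104), 1 of 41 genes beside 0.973% of all genes, and 1.37 without both wild-type arrays numbered 1 (0.0501). A second and dimmer Cdh11 probe set differed by 0.62 between mutant positive and wild-type positive cells without passing (limma adjusted p = 0.228 over all probe sets). That probe set differed by 0.89 between mutant positive and mutant negative cells, with an interaction of 1.22. Neither passed (limma adjusted p = 0.119 and 0.191 over all probe sets).

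Of 12 lateral plate and cardiac mesoderm markers, 12 were higher in mutant positive than in wild-type positive cells and 11 were higher in mutant positive than in mutant negative cells. The shares of all genes higher there were 4.23% and 3.07%. The mean level of the 12 markers was 10.98 to 11.12 in mutant positive and 9.49 to 9.77 in mutant negative cells, against 9.35 to 9.74 in wild-type positive and 9.64 to 10.02 in wild-type negative cells. These markers and Cdh11 were thus highest on the same 3 arrays, and the part of such cells in the Cdh11 level was not tested. In the RefSeq order of protein-coding genes on chromosome 8, Cdh11 stands next to Cdh5, with 0 genes between them, and Cdh8 stands on its other side. Cdh5 fell and Cdh11 rose in mutant positive against wild-type positive cells, while Cdh8 was low in all 4 groups.

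Cdh6 (K-cadherin), known from kidney and neural plate, read 9.55, 8.55 and 8.34 in mutant positive cells against 9.9995, 10.17 and 9.98 in mutant negative cells. In wild types it read 9.01, 7.65 and 8.30 in positive cells against 10.20, 9.96 and 10.38 in negative cells. Positive arrays lay below negative arrays in both genotypes with no overlap. The log2 difference was -1.24 ± 0.34 in mutants, which did not pass (limma adjusted p = 0.0645), and -1.86 ± 0.34 in wild types, which did (limma adjusted p = 0.00532). The mutant difference passed when positive and negative arrays of the same number were paired (limma adjusted p = 0.0309), without mutant positive array 1 (-1.61, limma adjusted p = 0.0134) and without wild-type positive array 1 or 2 (0.0312 and 0.034). The interaction of 0.62 did not pass (95% interval -0.44 to 1.68). A second and dimmer Cdh6 probe set differed by -0.17 in mutants and -0.35 in wild types without passing (limma adjusted p = 0.684 and 0.132 over all probe sets), and the mean of both gave -1.11 in wild types, which passed.

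Cdh2 (N-cadherin) passed the threshold between the wild-type sorts, and a difference between the genotypes in this did not (interaction 0.53 ± 0.27, limma adjusted p = 0.478). It read 11.22, 11.85 and 11.81 in mutant positive and 11.57, 12.06 and 11.80 in mutant negative cells, against 11.62, 11.39 and 11.47 in wild-type positive and 12.21, 11.96 and 12.47 in wild-type negative cells. Mutant arrays overlapped, and wild-type positive arrays lay below wild-type negative arrays. The difference was -0.18 in mutants (limma adjusted p = 0.762) and -0.72 ± 0.19 in wild types (limma adjusted p = 0.0412). The wild-type call was kept under 14 of 23 alternatives and was lost without any single wild-type array but wild-type negative array 2, and without mutant negative array 3 (limma adjusted p = 0.0584 to 0.158). A second Cdh2 probe set had a difference of -0.67 in wild types (limma adjusted p = 0.0612 over all probe sets).

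Cdh19, known from neural crest derivatives, was low in all 4 groups. It read 4.73, 4.76 and 4.76 in mutant positive and 5.03, 5.25 and 5.48 in mutant negative cells, against 4.88, 5.0 and 5.16 in wild-type positive and 5.48, 5.38 and 5.36 in wild-type negative cells. Positive arrays lay below negative arrays in both genotypes, with a log2 difference in mutants of -0.51 ± 0.12 (limma adjusted p = 0.0296). The call was kept under 13 of 22 alternatives, and the loss of any mutant array but mutant negative array 1 ended it (limma adjusted p = 0.0773 to 0.102). Cdh10 and Cdh4, cadherins of the nervous system, had differences between mutant positive and mutant negative cells that did not pass (-1.06 and -0.87, limma adjusted p = 0.0878 and 0.0916). In wild types Cdh10 differed by -0.94 with no overlap of arrays, also without passing (limma adjusted p = 0.104). With the mean of all probe sets, Cdh10 passed in both genotypes and Cdh4 passed in mutants. For Cdh4 a second probe set did pass (-1.17, limma adjusted p = 0.0037 over all probe sets). The others (Cdh7, Cdh8, Cdh9, Cdh18, Cdh20 and Cdh22) passed in no comparison of the unpaired fit, and Cdh7 passed in mutants with same-numbered arrays paired (-0.39, limma adjusted p = 0.0300, against 0.123 unpaired).

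Of the 7 members outside these classes, Cldn11 passed. Cldn11, the claudin of myelin and of Sertoli cells, read 6.41, 7.15 and 6.07 in mutant positive and 6.36, 6.11 and 6.23 in mutant negative cells, against 5.95, 5.49 and 5.15 in wild-type positive and 6.57, 6.75 and 7.69 in wild-type negative cells. Its wild-type positive arrays lay below those of every other group. Its wild-type positive mean was low, so the size of each difference from it is uncertain. The difference between wild-type positive and negative cells was -1.47 ± 0.32 (limma adjusted p = 0.0153), and it did not pass without array 3 of wild-type positive or of wild-type negative cells (limma adjusted p = 0.0608 and 0.0544). In mutants the difference was 0.31 (limma adjusted p = 0.762). Neither the interaction (1.78 ± 0.46, limma adjusted p = 0.0743) nor the difference of 1.01 ± 0.32 between mutant positive and wild-type positive cells (limma adjusted p = 0.0827) passed on all arrays, and the interaction passed without mutant positive array 3 (2.02, limma adjusted p = 0.0481), the other difference without wild-type negative array 3 (0.0467).

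**Figure D3:**
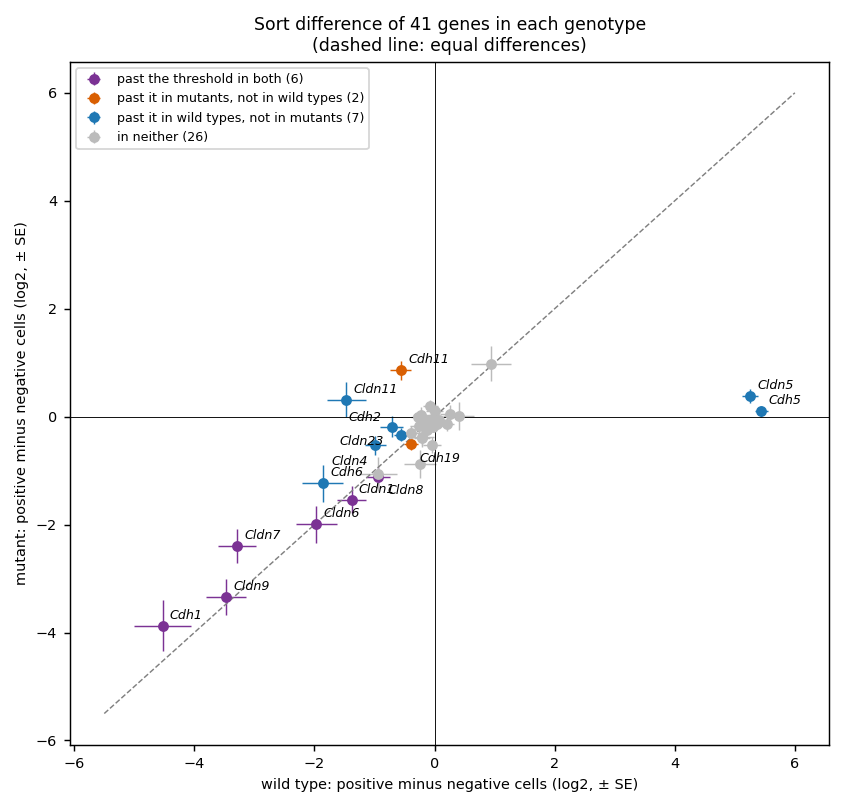
Log2 difference between positive and negative cells of each of the 41 genes, in mutants (vertical) against wild types (horizontal), with standard errors and the line of equal differences. The 6 genes that passed in both genotypes lie near the line at lower left, Cdh5 and Cldn5 lie at 5.44 and 5.25 in wild types but 0.10 and 0.39 in mutants, and Cdh11 lies at 0.86 in mutants but -0.56 in wild types.

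Taking all 41 genes by comparison, 13 passed between wild-type positive and negative cells, or 31.7%, beside 8.24% of all genes. Between mutant positive and mutant negative cells 8 passed, or 19.5%, beside 5.36% of all genes. Between mutant positive and wild-type positive cells 3 passed, or 7.32%, beside 7.97% of all genes, which is near the share over all genes. In the interaction 3 passed, or 7.32%, beside 2.58%. Arrays did not overlap between positive and negative cells for 22 genes in mutants (53.7%, beside 19.5% of all genes) and for 24 in wild types (58.5%, beside 25.2%), and between mutant positive and wild-type positive cells for 10 (24.4%, beside 25.7%). The sign of the positive-negative difference was the same in both genotypes for 31 of 41 genes, lower in 26 and higher in 5. The share of all genes with the same sign was not counted, so no trait of these genes is read from this. Comparisons that share a group of arrays are not independent of each other.

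Between mutant negative and wild-type negative cells 0 of the 41 genes passed limma's test, beside 0% of all genes. At an unadjusted p under 0.05 limma gave 2 of the 41, Cldn3 and Cldn11, beside 5.22% of all genes. Cldn3, a claudin of gut epithelium that neighbours Cldn4, was higher in mutant negative cells by 0.51 (95% interval 0.19 to 0.83, limma adjusted p = 0.909). Cdh1 differed by -0.54 (95% interval -1.58 to 0.50), and Cdh5 by 0.10 (-0.14 to 0.34). Arrays did not overlap for 5 genes (12.2%, beside 11.2% of all genes). Over all comparisons 15 of the 41 genes passed at least 1 test, or 36.6%, beside 14.3% of all genes, and 26 passed none, with values of 4.04 to 12.62. Among those 26, Cldn13 had 1 array far from the rest, 8.39 on wild-type positive array 3 against 7.06 to 7.36 on the other arrays.

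The intracellular partners of cadherins were read next. Of 13 catenins and other cadherin partners, 1 was higher in mutant positive than in mutant negative cells (Afdn, the nectin-binding protein afadin, by 0.83 ± 0.17, limma adjusted p = 0.0152), beside 5.36% of all genes past the threshold. In wild types 2 were higher in positive cells, Vcl (vinculin) by 0.73 ± 0.16 and Ctnna1 (alpha-catenin) by 0.32 ± 0.09, and 1 was lower, Arvcf, with a difference of -0.99 ± 0.24 (limma adjusted p = 0.0168, 0.0446 and 0.0234), beside 8.24% of all genes past the threshold. No partner passed between mutant positive and wild-type positive cells, and no nectin, of 5 measured, passed in any comparison. The median over the 13 partners was -0.04 in mutants and -0.09 in wild types between positive and negative cells.

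Of 19 tight junction genes other than claudins, 1 was higher and 2 lower in mutant positive than in wild-type positive cells. Of all genes, 4.23% were higher there and 3.74% lower. Esam, an endothelial junction adhesion protein that is also among the endothelial markers above, read 7.22 to 7.78 in mutant positive and 7.41 to 7.62 in mutant negative cells, against 9.78 to 10.02 in wild-type positive and 7.07 to 7.53 in wild-type negative cells. Tjp1 (ZO-1), the scaffold that binds claudin tails, read 12.40 to 12.50 in mutant positive and 12.43 to 12.57 in mutant negative cells, against 12.93 to 13.12 in wild-type positive and 12.34 to 12.44 in wild-type negative cells. Both genes had their highest values in wild-type positive cells, as Cdh5 and Cldn5 did, with changes of very different size. In mutant positive against wild-type positive cells Esam fell by 2.37 ± 0.16 and Tjp1 fell by 0.61 ± 0.09 on the log2 scale (limma adjusted p = 4.22e-06 and 0.00151), and both passed in the interaction (-2.48 and -0.70, limma adjusted p = 0.000104 and 0.0127). Pard6b, a polarity protein, rose by 1.57 ± 0.31 (limma adjusted p = 0.0101).

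Between positive and negative cells, 1 tight junction gene was higher and 2 were lower in mutants, while 3 were higher and 3 lower in wild types. The shares of all genes were 3.07% higher and 2.29% lower in mutants, and 4.63% and 3.61% in wild types. Tjp3 (ZO-3), a scaffold of epithelial tight junctions, was lower in both, with differences of -0.66 ± 0.13 in mutants and -0.76 ± 0.13 in wild types (limma adjusted p = 0.0119 and 0.00336). Cgnl1 (paracingulin) was higher in both, by 1.14 ± 0.24 and 0.97 ± 0.24 (limma adjusted p = 0.0193 and 0.0326). Marveld2 (tricellulin) passed in mutants, at -1.30 ± 0.29, while Crb3, an apical polarity protein, passed in wild types, at -0.43 ± 0.09 (limma adjusted p = 0.0228 and 0.011). The median over the 19 genes was -0.06 in mutants and -0.18 in wild types.

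**Figure D4:**
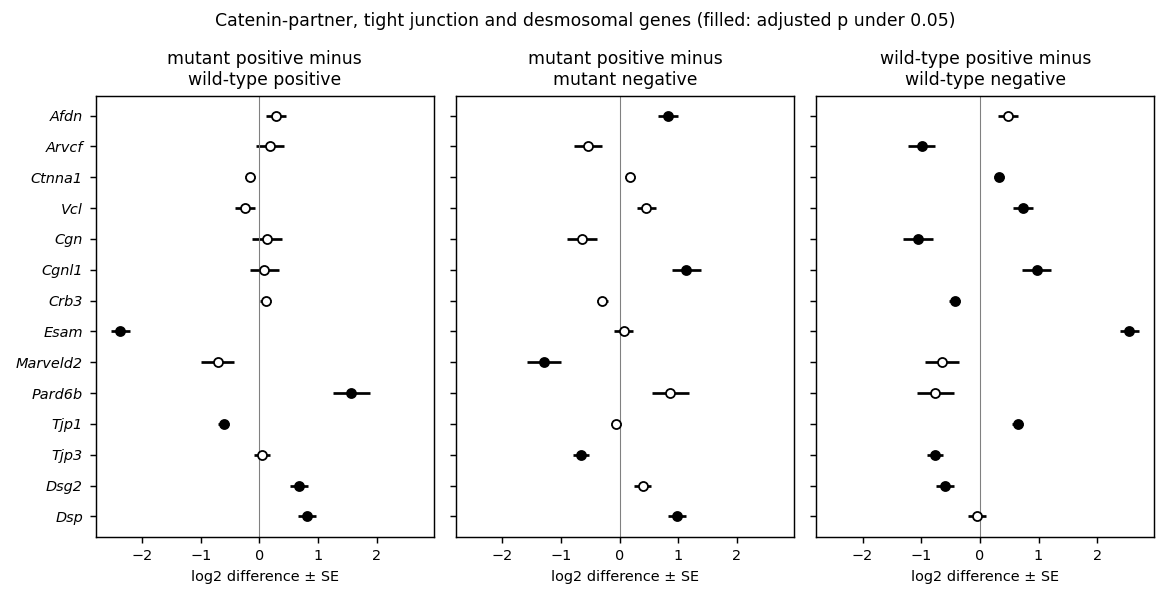
Log2 differences with standard errors of 14 junction partner genes that passed in at least 1 comparison, with panels for mutant positive minus wild-type positive, mutant positive minus mutant negative and wild-type positive minus wild-type negative cells. Esam lies at -2.37 between mutant positive and wild-type positive cells, and Dsp lies at 0.82.

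Desmosomes hold epithelial and cardiac cells together through a separate branch of the cadherin superfamily. Of 8 desmosomal genes, 2 were higher in mutant positive than in wild-type positive cells and 1 higher than in mutant negative cells, while 1 (Dsg2) was lower in positive than in negative cells of wild types, with a difference of -0.59 ± 0.15 (limma adjusted p = 0.0341). The shares of all genes in these comparisons were 4.23% higher, 3.07% higher and 3.61% lower, in that order. Dsp (desmoplakin) read 12.79, 12.91 and 13.19 in mutant positive and 11.81 to 12.09 in mutant negative cells, against 12.08 to 12.20 in wild-type positive and 11.88 to 12.45 in wild-type negative cells. Its mutant positive arrays lay above all the others, as those of Cdh11 did. Dsp rose by 0.82 ± 0.15 over wild-type positive and by 0.98 ± 0.15 over mutant negative cells (limma adjusted p = 0.00731 and 0.00336). Dsg2, a desmosomal cadherin, was higher by 0.67 ± 0.15 in mutant positive than in wild-type positive cells (limma adjusted p = 0.0197), and both passed in the interaction (1.02 for Dsp and 0.98 for Dsg2, limma adjusted p = 0.0317 and 0.0359).

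Protocadherins are a further branch, and 12 that lie outside the protocadherin clusters were measured. Pcdh19, known from the nervous system, read 8.13 to 8.46 in mutant positive against 10.17 to 10.77 in mutant negative cells, and 7.82 to 8.20 in wild-type positive against 10.35 to 10.74 in wild-type negative cells. Its differences were -2.21 ± 0.18 in mutants and -2.53 ± 0.18 in wild types (limma adjusted p = 0.000101 and 4.67e-06). Pcdh8, a protocadherin of paraxial mesoderm and brain, was lower in both as well (-3.20 ± 0.71 and -2.53 ± 0.71, limma adjusted p = 0.0219 and 0.0499). Pcdh18 was higher in the same comparison as Cdh11, with a difference of 1.06 ± 0.18 between mutant positive and wild-type positive cells and an interaction of 1.14 (limma adjusted p = 0.00343 and 0.0372). Pcdh7 rose by 2.02 ± 0.28 in mutant positive over mutant negative cells (limma adjusted p = 0.0017). In mutant positive against mutant negative cells 1 protocadherin was higher and 3 lower, and in wild-type positive against wild-type negative cells 0 were higher and 3 lower. The shares of all genes were 3.07% higher and 2.29% lower in mutants, and 4.63% and 3.61% in wild types.

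Of 11 factors known from epithelial-mesenchymal transition, several of which act on the Cdh1 promoter, 3 were higher and 1 lower in mutant positive than in mutant negative cells, while 1 was higher and 1 lower in positive than in negative cells of wild types. The shares of all genes were 3.07% higher and 2.29% lower in mutants, and 4.63% and 3.61% in wild types. Zeb1, a repressor of Cdh1, was higher in positive cells in both genotypes, by 0.76 ± 0.17 in mutants and 1.11 ± 0.17 in wild types (limma adjusted p = 0.0229 and 0.00168). Esrp1, an epithelial splicing factor that is also in the epithelial marker list, was lower in both, at -2.36 ± 0.31 and -2.17 ± 0.31 (limma adjusted p = 0.00132 and 0.00116). Snai2, another repressor of Cdh1, read 12.27 to 12.78 in mutant positive against 10.03 to 11.22 in mutant negative cells, a rise of 1.77 ± 0.26 (limma adjusted p = 0.00224). In wild types Snai2 read 11.82 to 12.03 in positive against 11.27 to 11.63 in negative cells, which did not pass. Zeb2, also a repressor of Cdh1, read 10.30 to 11.35 in mutant positive against 10.73 to 11.60 in mutant negative cells. It passed in neither genotype between positive and negative cells. Twist1, a mesenchymal transcription factor that is also in the lateral plate list, was highest in mutant positive cells at 11.23 to 11.63, against 9.75 to 10.12 in mutant negative, 10.10 to 10.31 in wild-type positive and 10.10 to 10.85 in wild-type negative cells. It rose by 1.25 ± 0.18 over wild-type positive cells, and its interaction was 1.81 (limma adjusted p = 0.0014 and 0.00231).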

How the data were processed

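Cells of 4 groups of 3 samples were hybridised to 12 arrays. The deposited values are log2 expression values that, per the submitters' processing notes, the authors made with RMA. The version and settings of RMA are not given in the sources used, and detection calls were not used here. Depth does not apply to arrays, and 3 arrays per group limit the precision. Of 45101 probe sets, 64 were controls, 34945 had 1 symbol in the platform annotation, 932 had several and 9160 were not listed. The RefSeq gene table, used for names and gene order, held 34741 of the named probe sets and changed 0 symbols. Each of 18193 genes was read from its brightest probe set by the mean of all arrays, with no filter on dim genes.

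The tests were limma's (version 3.58.1, R 4.3.3), two-sided, from 1 model of 4 groups (8 residual degrees of freedom), with Benjamini-Hochberg adjustment over the 18193 genes in each of 5 contrasts. Genes passed at an adjusted p under 0.05, whatever the fold. Errors are limma's standard errors (SE) unless given as SD, and intervals are 95% intervals from the same model. The code was tested on simulated data. Values on every array were given for Cdh5, Cldn5, Cdh1, Cdh2, Cdh3, Cdh11, Cldn6, Cldn7 and every other member past the threshold in any contrast. Of each partner list the genes named were among the 4 with the smallest unadjusted p of those past the threshold in a contrast, and other members are named by their roles. Members and lists were chosen with earlier results of these data known. Counts over a list are over its matched genes. Some listed genes, Trf among them, are not reported here, and Pals1 was matched as Mpp5.

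Positive and negative arrays of the same number had deviations from their group means that correlated across genes at 0.554, 0.403 and 0.413 in mutants and 0.190, 0.102 and 0.202 in wild types. All exceed 0.1, so in an alternative fit the numbers were taken to pair these arrays within a genotype. This pairing rests on the data, as the labels do not say it. The main tests, calls and intervals left the pairing out, and with it Cdh6, Cdh7 and Cldn3 also passed in mutants. Alternatives changed the probe set rule, a filter on dim genes, normalization, the arrays fitted, the spread estimate, array weights, the replicate block and single arrays, and 1 further setting, without both wild-type arrays numbered 1, was chosen after seeing the data.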

Additional observations from a re-analysis of the deposited data

Results flagged for a closer look

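The positive-negative difference of 3 genes differed between genotypes by the interaction test, taken as mutants minus wild types. It was -5.34 ± 0.15 for Cdh5 and -4.87 ± 0.19 for Cldn5 (log2, limma adjusted p = 1.34e-08 and 1.53e-07). It was 1.42 ± 0.25 for Cdh11 (limma adjusted p = 0.0104), where positive cells were above negative cells on every array in mutants and below them on every array in wild types.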

How the results depend on the processing

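Counts of the 41 genes past limma's threshold moved most where dim genes were left out, which kept 7 of the 41 in the fit. There the genes lower in mutant positive against mutant negative cells numbered 3, those lower in mutant positive against wild-type positive cells 1, those lower in the interaction 1, and in wild-type positive against wild-type negative cells 1 was higher and 4 were lower. With the mean of all probe sets, 2 were higher in mutant positive than in wild-type positive cells (Cldn12 was added to Cdh11). Without both wild-type arrays numbered 1, a setting chosen after seeing the data, 7 were lower in wild-type positive cells (Cdh2, Cldn4, Cldn8 and Cldn23 were lost) and 0 were higher in the interaction (Cdh11 was lost). Leaving out 1 array at a time gave 0 to 1 higher and 6 to 9 lower in mutant positive against mutant negative cells, 1 to 2 higher in mutant positive against wild-type positive cells, 8 to 12 lower in wild-type positive against wild-type negative cells, and 1 to 2 higher in the interaction.

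With the replicate block for pairs of positive and negative arrays, 10 genes were lower in mutant positive than in mutant negative cells (Cdh6, Cdh7 and Cldn3 were added), and with a block by number alone 9. The blocks changed no other count of the 41 genes. Over all genes the pair block gave 1041 genes lower in wild-type positive cells in place of 656, 872 higher in mutant positive over mutant negative cells in place of 558, and 378 higher in the interaction in place of 177. Fitting only the 2 groups compared gave 385 genes higher in mutant positive than in wild-type positive cells in place of 769. With dim genes left out, 226 genes were lower in mutant positive against mutant negative cells in place of 417, and 167 lower in the interaction in place of 292. Without both wild-type arrays numbered 1, 461 genes were higher and 299 lower in wild-type positive against negative cells in place of 843 and 656, and 505 were higher in mutant positive against wild-type positive cells.

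Some values that had not passed turned sign. Leaving out 1 array at a time, Cdh1 lay between -0.58 and 0.48 for mutant positive minus wild-type positive cells, and Cdh2 between -0.30 and 0.019 for mutant positive minus mutant negative cells. The interaction lay between -0.045 and 1.02 for Cdh1, -0.44 and 0.088 for Cldn1, -0.31 and 0.44 for Cldn6, -0.30 and 0.012 for Cldn8, and -0.29 and 0.40 for Cldn9. Without both wild-type arrays numbered 1 it was 0.0053 for Cldn1 and 0.18 for Cldn6. The causes were not tested. Arrays of 3 per group and values near the low end of each array limit the small and low genes, Cldn8, Cldn23 and Cdh19 among them.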
